A study of Mus musculus with 30 samples.

Results

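The collagen genes of mouse were described by where acetylated lysine 27 of histone H3 (H3K27ac) was found around them in lung adenocarcinoma cells. Members were all protein-coding genes of the GENCODE M21 annotation whose symbol has the form Col, a type number, a and a chain number, which gave 44 of 21951 genes. For each, peaks were counted within 2.5 kb of any annotated start site, called a promoter peak here, and within the gene body extended by 20 kb on each side, called a locus peak. The rule uses gene symbols only, but it was set with earlier results of these data known.

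Collagens are the main structural proteins of the extracellular matrix. Each is built of three-stranded helices of alpha chains, and each chain is the product of its own gene. Fibrillar collagens form the ropes of connective tissue and are made mostly by fibroblasts, whereas type IV collagens form the meshwork of the basement membrane on which epithelial cells of the lung sit. H3K27ac is found at active promoters and enhancers, and G9a and Glp are the methyltransferases that place mono- and dimethyl marks on lysine 9 of the same histone.

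The series holds 30 samples in 12 groups, of which the 9 H3K27ac samples in 4 groups were used. CK1750 and Tnm2 are mouse lung adenocarcinoma cell lines. Both were cultured in medium with serum, either with DMSO, the solvent, or with UNC0638 at 1 µM, which inhibits G9a and Glp, and the groups are named here by line and addition (CK1750 DMSO and so on). The labels list 3 H3K27ac samples of CK1750 DMSO, and 2 each of CK1750 UNC0638, Tnm2 DMSO and Tnm2 UNC0638. Part of the titles name a sequencing run beside a replicate number, and the samples of CK1750 UNC0638 carry 1 replicate number only. The 21 other samples (dimethylated lysine 9 and input DNA) were not analysed here. The labels give neither genotype nor length of treatment, and each line stands for the tumour it came from and not for lung adenocarcinoma in general.

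Each group had 1 merged peak list, of 27367 peaks in CK1750 DMSO, 24601 in CK1750 UNC0638, 30641 in Tnm2 DMSO and 18794 in Tnm2 UNC0638. There was therefore no replicate spread and no test between groups, read depth was unknown, and a peak missing from a list may lie just under the calling cutoff. Peak scores are the negative log10 of the caller's P value times 10, with a cutoff of 50. They rank peaks within a list and are not a signal to be compared between lists. The epithelial origin of adenocarcinoma cells was looked at on marker promoters. In the lists as ordered above, 50%, 49.1%, 49.4% and 41.3% of all protein-coding genes had a promoter peak. Of 8 epithelial markers 5, 4, 4 and 4 had a promoter peak in the same order. Krt8, Krt18, Krt19 and Cdh1 had one in every list, Cldn7 in CK1750 DMSO only (67.77), and Epcam, Cldn4 and Esrp1 in none. Of 4 lung epithelial markers 2, 2, 2 and 3 had one. These were Nkx2-1 and Sftpc in every list, the latter by a peak shared with the neighbouring gene Bmp1, and Sftpb in Tnm2 UNC0638 only (77.4), while Napsa had none. Of 8 fibroblast markers, which include Pdgfra, Thy1 and Dcn, 0 had a promoter peak in any list. The same held for 0 of 4 leukocyte markers, and of 4 endothelial markers only Pecam1 had such a peak, in the lists of Tnm2.

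Sequences are shown for the elements on which the results below turn. The first set holds bases before the RefSeq start of 5 genes, taken from RefSeq on GRCm38.p6. Of these, 3 had a peak at the start in at least 1 list (Col4a5, Col8a1 and Col5a1), and only Col8a1 in every list. The other 2 had none in any list (Col3a1 and Col17a1). Up to 250 bases are given, and 34 bases of Col4a5 and 52 of Col17a1 that GENCODE places in an exon were left out. Of the 44 members, 35 were found in the promoter table, and no comparison of base composition over the family was made. Capitals mark matches on either strand to a TATA box, spelled TATAAA, to a CCAAT box, to a GC box with the letters GGGCGG, or to an AP-1 motif, for which TGANTCA was searched. These motifs do not overlap each other here.
Col4a5: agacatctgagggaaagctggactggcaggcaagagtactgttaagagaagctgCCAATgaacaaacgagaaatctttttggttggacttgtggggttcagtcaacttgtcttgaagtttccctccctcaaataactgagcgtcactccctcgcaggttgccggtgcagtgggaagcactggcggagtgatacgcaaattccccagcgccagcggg
Col8a1: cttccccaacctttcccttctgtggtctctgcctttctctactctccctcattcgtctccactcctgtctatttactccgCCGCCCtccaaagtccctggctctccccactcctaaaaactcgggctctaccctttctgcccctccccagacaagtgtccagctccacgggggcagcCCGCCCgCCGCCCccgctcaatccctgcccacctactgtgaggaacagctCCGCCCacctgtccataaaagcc
Col5a1: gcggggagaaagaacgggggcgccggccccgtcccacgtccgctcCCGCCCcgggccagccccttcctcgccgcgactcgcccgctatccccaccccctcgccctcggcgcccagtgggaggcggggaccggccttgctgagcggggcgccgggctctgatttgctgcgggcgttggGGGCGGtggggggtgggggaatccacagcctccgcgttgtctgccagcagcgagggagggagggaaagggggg
Col3a1: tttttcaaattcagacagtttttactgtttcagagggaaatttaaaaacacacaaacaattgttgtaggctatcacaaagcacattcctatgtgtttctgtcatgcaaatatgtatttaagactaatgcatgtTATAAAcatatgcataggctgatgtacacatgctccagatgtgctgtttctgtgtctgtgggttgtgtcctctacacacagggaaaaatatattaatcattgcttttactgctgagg
Col17a1: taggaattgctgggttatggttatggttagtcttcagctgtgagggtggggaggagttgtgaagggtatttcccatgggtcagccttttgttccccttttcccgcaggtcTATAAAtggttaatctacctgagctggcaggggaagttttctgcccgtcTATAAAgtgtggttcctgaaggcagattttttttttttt
The sequences lie at chrX:141475169-141475384 (plus strand), chr16:57754738-57754987 (minus strand), chr2:27886175-27886424 (plus strand), chr1:45311288-45311537 (plus strand) and chr19:47692095-47692292 (minus strand). The GC content was 52.3% for Col4a5, 60.8% for Col8a1, 76.4% for Col5a1, 35.2% for Col3a1 and 45.5% for Col17a1, where the median of 32851 promoters was 52.4%. The ratio of observed to expected CpG was 0.549 for Col4a5, 0.577 for Col8a1, 0.772 for Col5a1, 0.0 for Col3a1 and 0.213 for Col17a1, against a median of 0.373. Col8a1 held 4 GC boxes and Col5a1 held 2, while Col4a5 held 1 CCAAT box. Col3a1 held 1 TATA box and Col17a1 held 2. Over the same 250 bases of all promoters, a TATA box was found in 12.4%, a CCAAT box in 33.8%, a GC box in 32.7% and an AP-1 motif in 6.75%. The sequences with a peak at the start were the ones above the median in CpG ratio, but 5 sequences chosen as examples allow no statement on the family.

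The second set holds the central 300 bases of the part that the highest-scoring peak of every list covered, in the intronic elements of Col4a2, Col5a1 and Col18a1 that stood highest in score away from a start site. They are given on the plus strand of GRCm38.p6 with the same motifs in capitals.
Col4a2 intron: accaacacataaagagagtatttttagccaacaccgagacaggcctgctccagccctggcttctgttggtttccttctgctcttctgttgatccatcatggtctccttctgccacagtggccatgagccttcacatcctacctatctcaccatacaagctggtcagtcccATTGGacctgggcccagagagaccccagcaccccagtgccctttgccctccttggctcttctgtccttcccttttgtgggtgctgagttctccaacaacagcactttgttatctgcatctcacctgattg
Col5a1 intron: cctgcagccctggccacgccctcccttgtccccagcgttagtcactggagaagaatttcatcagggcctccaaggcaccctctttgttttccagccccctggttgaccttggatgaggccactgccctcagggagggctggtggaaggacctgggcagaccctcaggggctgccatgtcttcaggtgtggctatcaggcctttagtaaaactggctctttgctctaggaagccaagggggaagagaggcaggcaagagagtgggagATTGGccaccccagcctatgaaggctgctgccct
Col18a1 intron: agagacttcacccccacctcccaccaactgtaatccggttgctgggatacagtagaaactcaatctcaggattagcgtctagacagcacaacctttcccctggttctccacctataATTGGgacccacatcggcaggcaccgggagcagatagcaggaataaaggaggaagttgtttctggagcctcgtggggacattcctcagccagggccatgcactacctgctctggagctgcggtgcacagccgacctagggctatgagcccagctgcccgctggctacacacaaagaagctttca
The positions are chr8:11323065-11323364, chr2:27916488-27916787 and chr10:77151043-77151342. Each held 1 CCAAT match and no match to the other motifs, where 24.0% to 25.7% of the same central windows of all peaks in the 4 lists held a CCAAT box and 10.3% to 11% an AP-1 motif. The CpG ratio was 0.0526 in the Col4a2 element, 0.0749 in the Col5a1 element and 0.352 in the Col18a1 element, all below the value of each printed promoter of a gene with a peak.

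Most collagen genes had no H3K27ac peak called near their start sites. A promoter peak was present at 8 of 44 genes (18.2%) in CK1750 DMSO, 8 (18.2%) in CK1750 UNC0638, 12 (27.3%) in Tnm2 DMSO and 4 (9.09%) in Tnm2 UNC0638. Over all protein-coding genes the shares were 50%, 49.1%, 49.4% and 41.3% in the same order. Across the 4 lists, 12 collagen genes had a promoter peak at least once, 4 had it in every list (Col4a1, Col4a2, Col8a1 and Col18a1) and 32 never had it. Of all genes, 54.0% had a promoter peak at least once and 39.2% in every list. The family thus lay below the gene-wide share in each list, although collagen genes had a median of 4 annotated start sites against 3. Col4a1 and Col4a2, Col4a3 and Col4a4, and Col4a5 and Col4a6 lie head to head with starts 21, 72 and 1309 bp apart and share their peaks. With each pair counted once, the counts were 6, 6, 9 and 3 of 41.

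**Figure D1:**
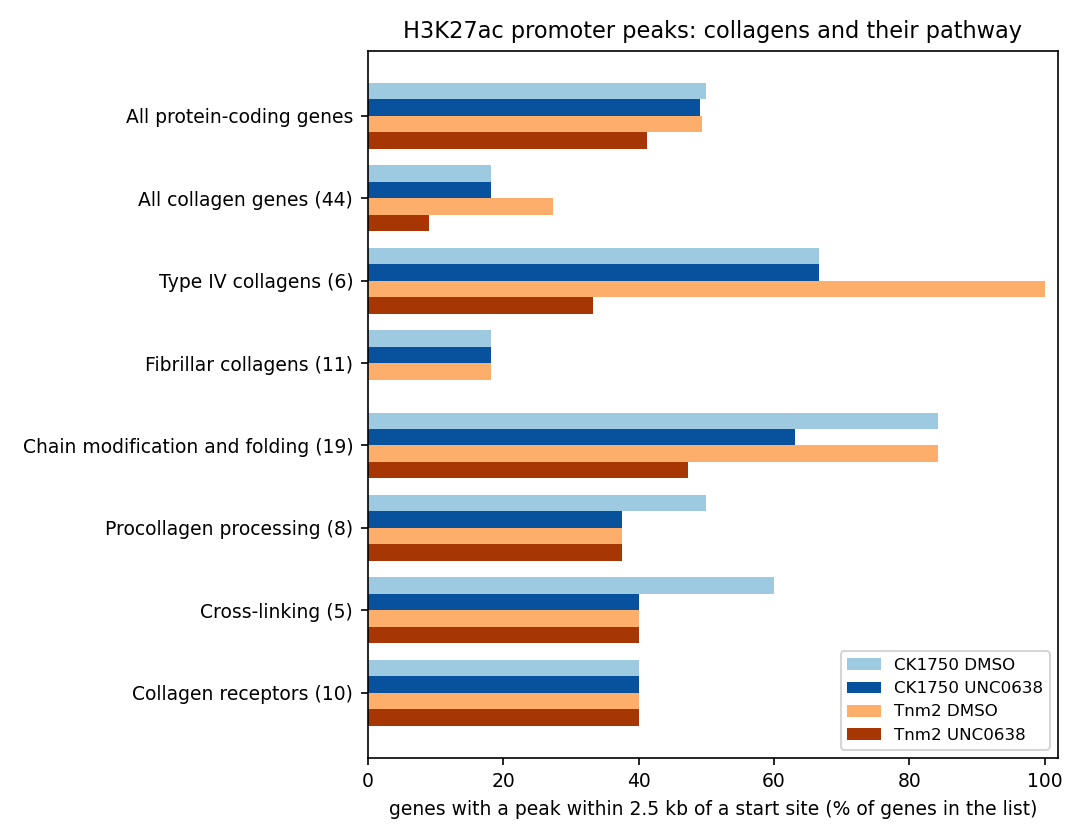
Share of genes with an H3K27ac peak within 2.5 kb of a start site (x axis, percent of the genes in each list; gene numbers in brackets) in the 4 peak lists (bar colours), for all protein-coding genes, the collagens, 2 of their structural classes and 4 groups of collagen pathway genes. Collagen genes sit at 9.09% to 27.3% against 41.3% to 50% of all genes, type IV collagens range from 2 to 6 of 6 genes, and each bar rests on 1 list with no error.

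Locus peaks were also found at a smaller share of collagen genes than of all genes. At least 1 locus peak was present at 21 members (47.7%) in CK1750 DMSO, 20 (45.5%) in CK1750 UNC0638, 24 (54.5%) in Tnm2 DMSO and 17 (38.6%) in Tnm2 UNC0638, where all genes gave 65.3%, 63.8%, 65.5% and 58.0%. Collagen genes are long, with a median of 114 kb against 17.4 kb, so the windows searched were larger than for other genes. Per Mb of the 6.94 Mb of collagen loci there were 8.22, 7.21, 9.23 and 5.33 peaks, against 16.3, 14.8, 18.0 and 11.3 per Mb over all loci. Start sites and flanks make up a smaller part of each Mb in long genes, and genes of like length were not compared. The distinct peaks numbered 57, 50, 64 and 37. Of these, 7, 10, 12 and 3 lay in a collagen promoter window, 16, 15, 17 and 15 lay only in the promoter window of another gene, and 34, 25, 35 and 19 lay in neither. Locus counts therefore hold a sizeable part of neighbouring genes' promoters. Without peaks at other genes' promoters, an alternative added after the data were seen, 13 genes kept a locus peak in CK1750 DMSO, 11 in CK1750 UNC0638, 16 in Tnm2 DMSO and 9 in Tnm2 UNC0638, or 29.5%, 25.0%, 36.4% and 20.5% of the 44. The same removal left a locus peak at 57.2%, 55.5%, 57.5% and 48.3% of all genes.

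**Figure D2:**
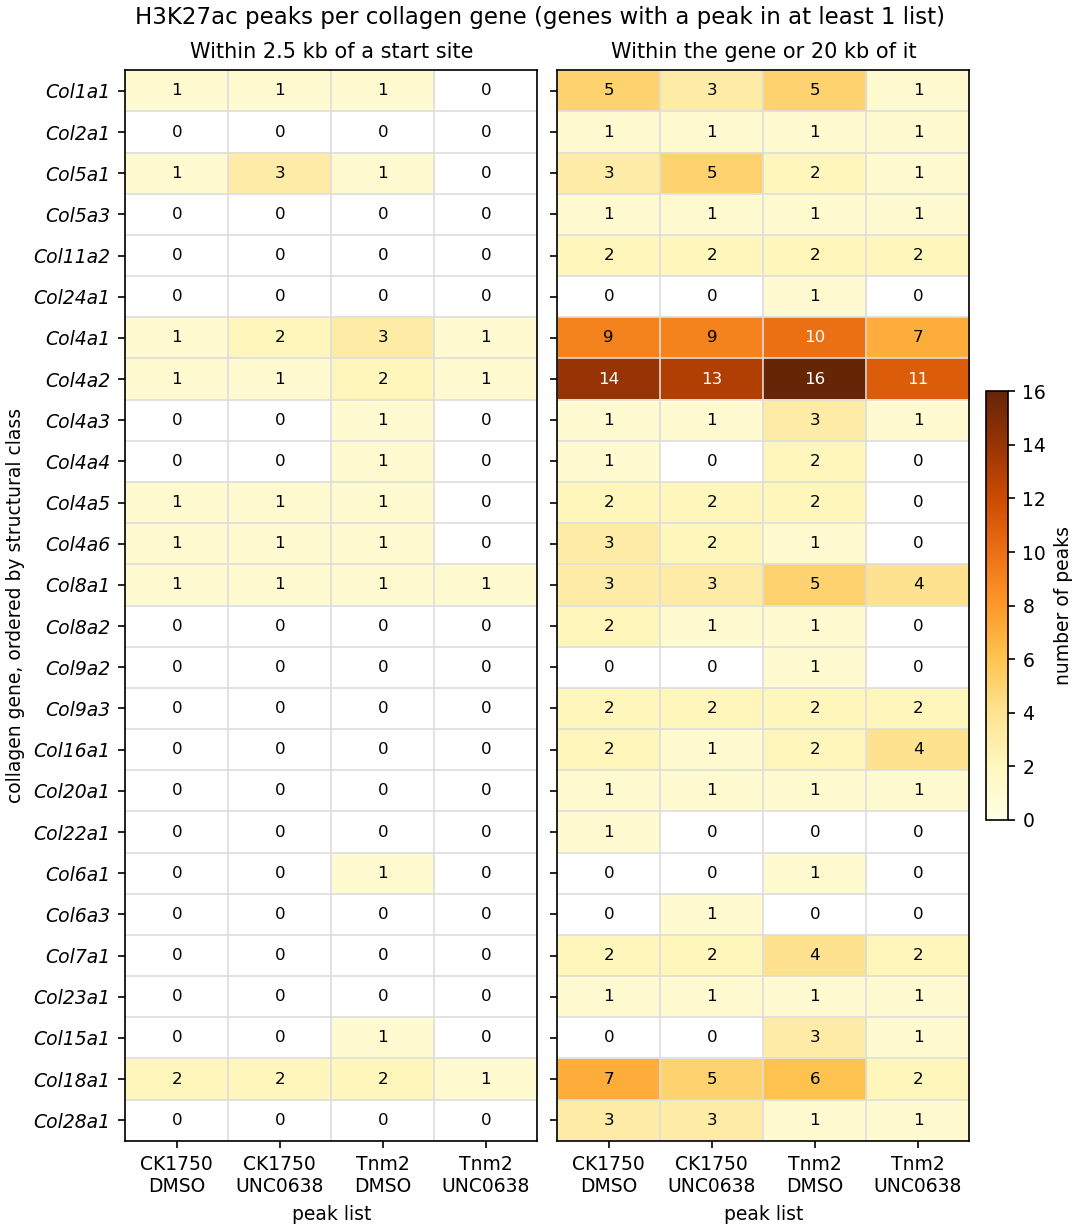
Number of H3K27ac peaks at each of the 26 collagen genes with at least 1 locus peak (rows, by structural class) in the 4 peak lists (columns), within 2.5 kb of a start site (left) and within the gene or 20 kb of it (right), with colour showing the same number. Col4a1 and Col4a2 hold the most locus peaks in each list, and the right column of the left panel (Tnm2 UNC0638) is filled at 4 genes only.

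The type IV genes encode the 6 chains of the basement membrane network, and 4, 4, 6 and 2 of them had a promoter peak in the 4 lists (CK1750 before Tnm2 and, within a line, DMSO before UNC0638, an order kept below). These are more genes than in any other class in each list, but the genes of a pair share peaks. The distinct promoter peaks of type IV numbered 2, 3, 5 and 1, against 2, 4, 2 and 0 for the fibrillar genes and 2, 2, 3 and 1 for the multiplexins. Col4a1 and Col4a2 encode the chains of the common network. A peak over their shared start on chromosome 8 scored 1876.21, 1938.85, 807.47 and 301.49, and 94.5%, 95.4%, 90.0% and 80.8% of all peaks of the list scored lower. The peak was 2865, 2854, 2984 and 2084 bp wide. It was the strongest promoter peak of the family in every list.

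Col4a1 and Col4a2 also held the largest number of locus peaks. Their joint locus contained 15, 14, 19 and 12 peaks, which is 26.3%, 28.0%, 29.7% and 32.4% of all distinct peaks in collagen loci. When the 4 lists were joined, 87 regions lay in collagen loci, 23 of them in this locus, and 7 of these 23 had a peak in every list. The highest score was not at the start but in an intron of Col4a2 about 10 kb inside the gene, in the region chr8:11320398-11325586 whose core is printed above. There the scores were 2145.89, 2386.79, 1228.7 and 560.94. Next came intronic regions at chr8:11337415-11341573 (885.02, 871.14, 631.71 and 329.74) and chr8:11345348-11347841 (626.66, 980.85, 468.75 and 314.36). An element in a Col4a1 intron at chr8:11259110-11261143 scored 420.24, 320.41, 289.73 and 219.1. A region at chr8:11369397-11370269 was called in Tnm2 only, at 190.0 with DMSO and at 67.64 after UNC0638.

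**Figure D3:**
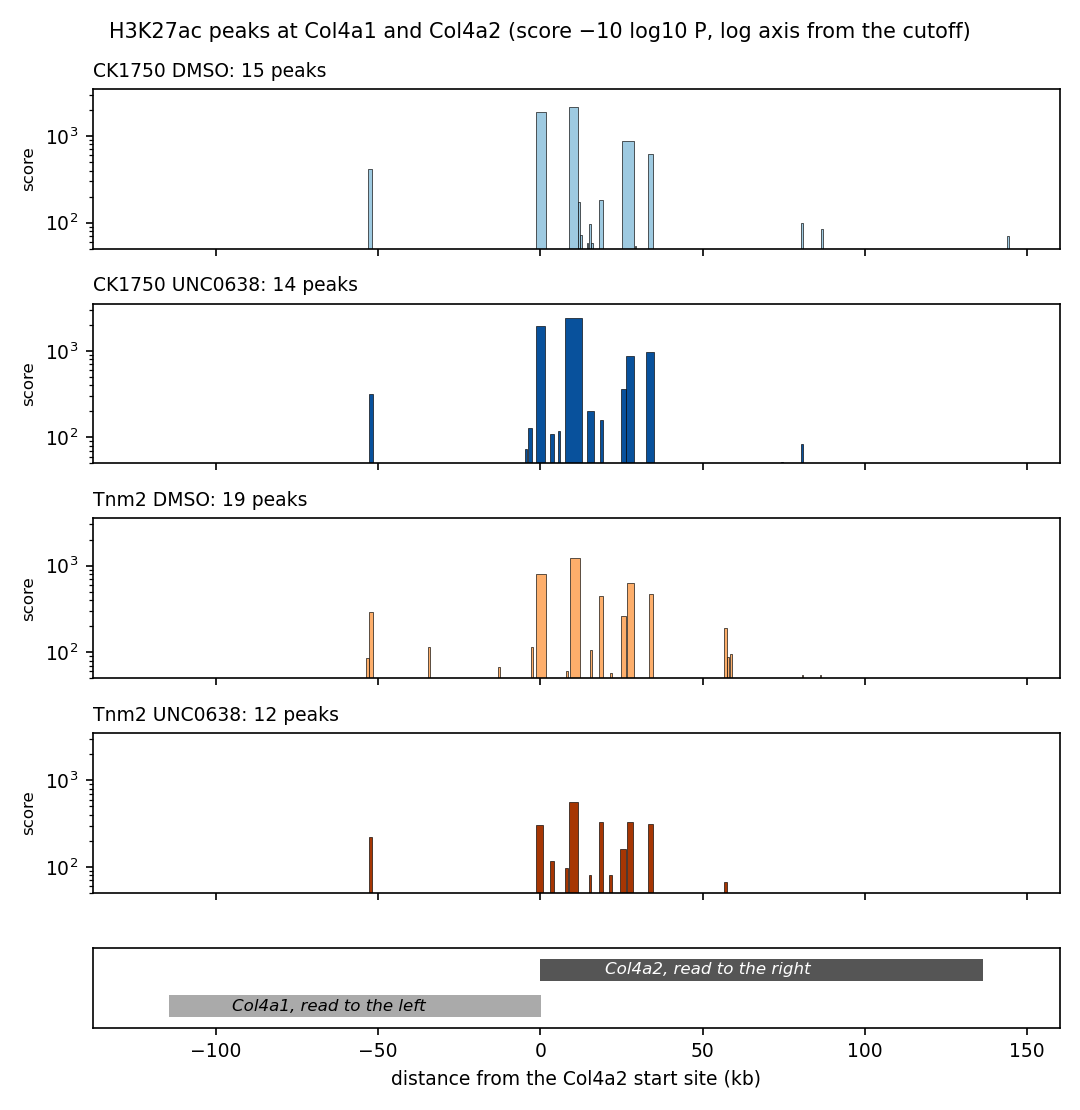
H3K27ac peaks in the joint locus of Col4a1 and Col4a2 in each of the 4 lists, by distance from the Col4a2 start (x axis, kb) and by score (y axis, from the caller's P value, log axis starting at the cutoff of 50), with bars as wide as the peaks and the gene bodies below. The shared start and the first part of Col4a2 carry the high peaks in all 4 lists (15, 14, 19 and 12 peaks), and 7 of the 23 regions of the joined lists have a peak in every list.

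Col4a5 and Col4a6, the X-linked type IV genes, differed between lists. The peak at the Col4a5 start, in the promoter printed above, scored 590.2 in CK1750 DMSO, 374.07 in CK1750 UNC0638 and 185.11 in Tnm2 DMSO, and was absent in Tnm2 UNC0638, where the nearest peak to the Col4a5 start was 476 kb away. The same peak lay 0.944, 0.89 and 1.08 kb from the Col4a6 start and is the only promoter peak of that gene. Col4a3 and Col4a4, the third pair, encode chains of the network in kidney glomerulus and lung alveolus. Their shared start had a peak only in Tnm2 DMSO, with a score of 52.74, just above the cutoff. A stronger peak, with scores of 2079.7, 1872.74, 1887.85 and 778.95, lies downstream of Col4a3 at the promoter of the neighbouring gene Mff. It was 8.89 to 9.13 kb from an internal Col4a3 start site, not from the shared start.

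Among the 11 fibrillar genes, 2, 2, 2 and 0 had a promoter peak, and these were Col5a1 and Col1a1. Col5a1 encodes a chain of type V collagen, which takes part in starting and sizing fibrils. Its start had a peak of 200.13 in CK1750 DMSO and 181.75 in CK1750 UNC0638. In Tnm2 DMSO the only peak in the window was an intronic one of 51.68, 2.01 kb inside the gene, and in Tnm2 UNC0638 there was none. The intronic element of Col5a1 at chr2:27915942-27918073, 29.5 kb or more from the start, was called in all 4 lists with scores of 625.24, 770.58, 515.76 and 229.53, above the start site peak in each list that had one. Col1a1 encodes the main chain of type I collagen. Its promoter peak lay in an intron 0.607 to 0.678 kb inside the gene and scored 102.58, 51.89 and 96.78, with none in Tnm2 UNC0638. An element upstream of Col1a1 at chr11:94927263-94928517 scored 107.26, 113.94 and 241.8 and was also absent in Tnm2 UNC0638. Downstream, chr11:94957342-94958681 scored 110.98 in CK1750 UNC0638, 325.05 in Tnm2 DMSO and 152.06 in Tnm2 UNC0638. Col1a2 and Col3a1, the other chains of the common interstitial fibrils, had no locus peak in any list. The nearest peak to any Col3a1 start was 360 kb away in CK1750 DMSO and 455 kb in the other lists.

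Of the multiplexins, collagens whose ends release antiangiogenic fragments such as endostatin, Col18a1 had a promoter peak in every list, but not at the same start site. The first start had a peak of 412.18, 460.35 and 75.74 and none in Tnm2 UNC0638, where the nearest was 14.5 kb away. An internal start at chr10:77089003-77089795 had a peak of 67.33 in CK1750 UNC0638, 116.11 in Tnm2 DMSO and 62.04 in Tnm2 UNC0638, so the highest promoter peak of Col18a1 in Tnm2 was the internal one. With the 5′-most start of each gene only, Col18a1 lost its promoter call in Tnm2 UNC0638. The intronic element printed above, in chr10:77150344-77152794, scored 528.31, 777.91, 456.7 and 243.53. Col15a1, the other multiplexin, had a promoter peak in Tnm2 DMSO only, of 51.7 at an internal start 50.4 kb from the first. It also had locus peaks in Tnm2 only, at 147.46 with DMSO and 52.86 with UNC0638 in chr4:47293971-47294817. A further peak, in a Col15a1 exon at chr4:47292857-47293539, scored 120.56 in Tnm2 DMSO and was absent in Tnm2 UNC0638.

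Col8a1 encodes a short-chain network collagen of the vessel wall and of basement membranes such as that of the corneal endothelium. Its start had a peak in every list, with scores of 134.37, 259.75, 68.42 and 63.82. An intronic region at chr16:57671907-57672907 was also called in all 4 lists (147.98, 211.88, 105.49 and 55.49). Of the 6 type VI genes, which encode chains of beaded filaments, Col6a1 alone had a promoter peak, of 76.23 in Tnm2 DMSO. Of the 9 fibril-associated genes, the anchoring fibril gene Col7a1, the 4 transmembrane genes and the 2 genes of no such class, 0 had a promoter peak in any list.

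Of the 32 genes without a promoter peak, 14 had a locus peak in at least 1 list. For 6 of these (Col2a1, Col9a3, Col11a2, Col16a1, Col20a1 and Col23a1) every locus peak lay at the promoter of another gene. For 5 (Col5a3, Col6a3, Col9a2, Col22a1 and Col24a1) none did, and for 3 (Col7a1, Col8a2 and Col28a1) some did. Col7a1, whose product anchors the basement membrane to the stroma, had 2, 2, 4 and 2 locus peaks, most of them at Uqcrc1, Ucn2 and Pfkfb4. Col16a1 had 2, 1, 2 and 4, all at Pef1. Col11a2 had 2 in each list, at Rxrb, Slc39a7, H2-Ke6 and Ring1, and Col9a3 had 2 in each list, at Ogfr and Mrgbp. Col28a1 had 3, 3, 1 and 1, of which the peak found in all lists lies at Mios.

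The other 18 members had no locus peak in any list. These were Col1a2, Col3a1, Col5a2, Col11a1 and Col27a1 (fibrillar), Col10a1 (short-chain), Col9a1, Col12a1, Col14a1 and Col19a1 (fibril-associated), Col6a2, Col6a4, Col6a5 and Col6a6 (type VI), Col13a1, Col17a1 and Col25a1 (transmembrane) and Col26a1. Their nearest peaks were 24.6 to 455 kb from a start site. Col17a1, the hemidesmosomal collagen of basal epithelial cells, was among them, with its nearest peak 38.3 to 38.5 kb away.

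No promoter call of a collagen gene differed between DMSO and UNC0638 in CK1750. All 8 genes with a promoter peak with DMSO had one with UNC0638, and 0 appeared with UNC0638 alone. Over all genes, 4.85% of the promoter calls with DMSO were absent with UNC0638 and 3.08% of those with UNC0638 were absent with DMSO. In Tnm2, 8 of 12 collagen genes (66.7%) had no promoter peak in the UNC0638 list, and 0 were gained. These were Col1a1, Col4a3, Col4a4, Col4a5, Col4a6, Col5a1, Col6a1 and Col15a1, while Col4a1, Col4a2, Col8a1 and Col18a1 kept a call. Col4a3 and Col4a4 share 1 peak, as do Col4a5 and Col4a6. With each head-to-head pair counted once, the Tnm2 counts were 9 with DMSO and 3 with UNC0638. Over all genes of Tnm2, 17.7% of the DMSO calls were absent with UNC0638 and 1.45% of the UNC0638 calls were absent with DMSO. The UNC0638 list of Tnm2 was the shortest of the 4, and its length moved with this count, so values by score and at equal list length follow.

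Most of the Tnm2 peaks in question were weak. In the DMSO list of Tnm2, 7 of the 12 genes had a highest promoter score of 50 to under 100. Of these 7, 6 (Col4a3 and Col4a4 by 1 shared peak) had no promoter peak with UNC0638, where 74.5% of all genes in that range had none. From 100 to under 200 it was 2 of 3 (Col4a5 and Col4a6, which share a peak) against 40.3%, and from 200 upward 0 of 2 against 3.27%. In CK1750, 0 collagen genes had a highest score under 100, 2 had 100 to under 200 and 6 had more. The shares over all genes in CK1750 were 36.0%, 8.47% and 0.19% in the same ranges. When each list was cut to its 18794 highest-scoring peaks, 2 collagen genes of 5 were absent with UNC0638 in Tnm2 (Col4a5 and Col4a6) and 1 appeared (Col8a1), while 10.1% of all calls were absent. In CK1750 under the same limit 1 of 8 was absent (Col1a1), against 4.67% of all genes. With peaks of a score of at least 100 only, 3 of 5 were absent in Tnm2 (Col4a5, Col4a6 and Col18a1) against 27.7%, and 1 of 8 in CK1750 (Col1a1) against 5.42%. Of the 8 genes, 6 had a DMSO score under 100, and only Col4a5 and Col4a6 were absent with UNC0638 in Tnm2 under the main count and both of these settings.

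**Figure D4:**
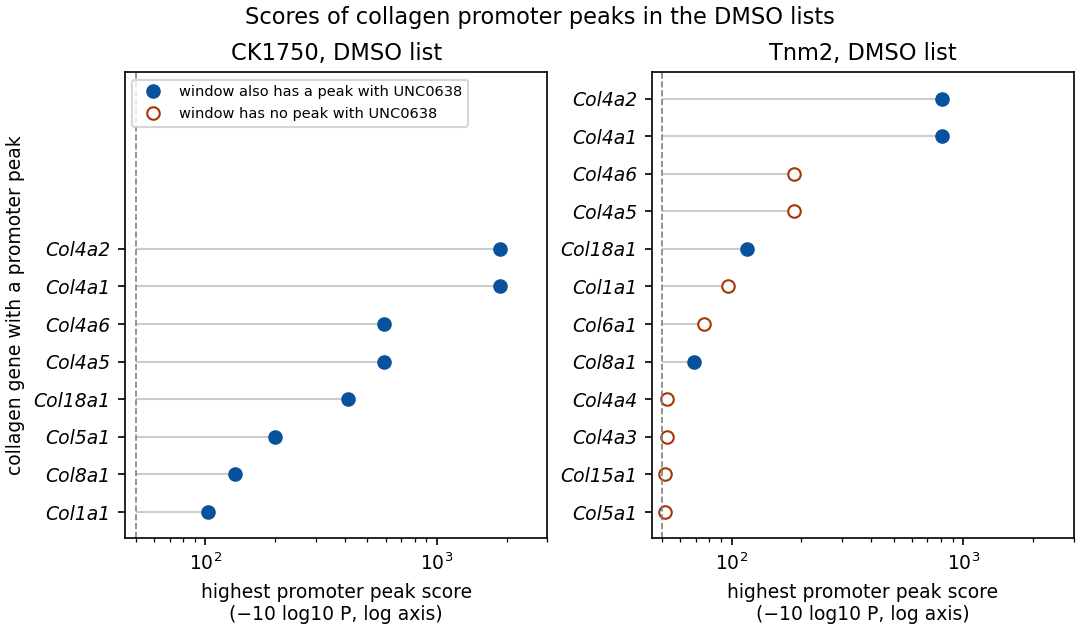
Highest promoter peak score with DMSO (x axis, from the caller's P value, log axis, dashed line at the cutoff of 50) of each collagen gene with a promoter peak in CK1750 (left) and Tnm2 (right), filled where the same gene also has a promoter peak with UNC0638 and open where it has none. All 8 points of CK1750 are filled, and 6 of the 8 open points of Tnm2 lie under a score of 100.

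Lines were then compared within a treatment. With DMSO, 0 collagen genes had a promoter peak in CK1750 only and 4 in Tnm2 only (Col4a3, Col4a4, Col6a1 and Col15a1), all with scores under 100. Over all genes, 7.47% of the CK1750 calls were absent in Tnm2 and 6.34% of the Tnm2 calls were absent in CK1750. With UNC0638, 4 collagen genes had a promoter peak in CK1750 only (Col1a1, Col4a5, Col4a6 and Col5a1) and 0 in Tnm2 only, against 18.7% and 3.21% over all genes. The DMSO difference did not stand when the lists were brought to equal length, where 0 of 5 Tnm2 genes were called in Tnm2 only and 3 of 8 CK1750 genes in CK1750 only. Over all genes at equal length, 5.56% of the Tnm2 calls were absent in CK1750 and 11.2% of the CK1750 calls were absent in Tnm2.

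Single peaks of collagen loci were compared between treatments by overlap. In CK1750, 15 of 57 DMSO peaks (26.3%) had no overlapping peak with UNC0638, and 13 of 50 UNC0638 peaks (26.0%) had none with DMSO, where all loci gave 19.9% and 18.2%. In Tnm2, 31 of 64 DMSO peaks (48.4%) had none with UNC0638 and 3 of 37 UNC0638 peaks (8.11%) none with DMSO, against 41.1% and 8.01%. The changed peaks of CK1750 were weak in both directions. Those absent with UNC0638 scored at most 100.56 (upstream of Col1a1), followed by 92.4 downstream of Col4a6 and 85.57 in a Col4a2 intron. Those found only with UNC0638 reached 129.37 in a Col4a1 intron, 119.3 in a Col4a2 intron and 110.98 downstream of Col1a1. In Tnm2 the strongest peaks absent with UNC0638 were the upstream element of Col1a1 at 241.8, a peak at the Uqcrc1 promoter beside Col7a1 at 202.91 and the Col4a5 promoter peak at 185.11. The 3 found only with UNC0638 were in a Col4a2 intron (115.7), at Pef1 downstream of Col16a1 (64.15) and downstream of Col5a3 (50.09).

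Of the 87 regions of the joined lists in collagen loci, 23 (26.4%) had a peak in every list, against 37.1% of regions in all loci. The pattern next in number was Tnm2 DMSO alone, with 17 regions (19.5%, against 16.2%), then CK1750 DMSO alone with 12 (13.8%, against 9.6%). Regions found in 1 list numbered 39, and none of these scored above 120.56, the value of a Col15a1 exon region in Tnm2 DMSO. Peaks called in every list but Tnm2 UNC0638 made up 10 regions (11.5%, against 8.88%), among them the Col4a5 promoter, the first start of Col18a1 and the upstream element of Col1a1.

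Genes that modify, process, cross-link and sense collagens were counted in the same way. Of 42 such genes, 27 (64.3%) had a promoter peak in CK1750 DMSO, 21 (50%) in CK1750 UNC0638, 25 (59.5%) in Tnm2 DMSO and 18 (42.9%) in Tnm2 UNC0638, where all genes gave 50%, 49.1%, 49.4% and 41.3%. For chain modification and folding in the endoplasmic reticulum the counts were 16, 12, 16 and 9 of 19. P4ha1, a catalytic subunit of prolyl 4-hydroxylase, had a peak in every list (314.88, 271.51, 120.52 and 58.53), and so had Plod3, Ppib, Colgalt1, P4ha3 and Mia3. Serpinh1, which encodes the collagen chaperone Hsp47, had a promoter peak in Tnm2 only, of 441.85 (DMSO) and 127.57 (UNC0638). Plod2, a lysyl hydroxylase, had one in CK1750 only, of 344.56 (DMSO) and 136.06 (UNC0638). In Tnm2, 7 of the 16 genes called with DMSO had no peak with UNC0638 (P4ha2, P4hb, Plod1, P3h1, P3h2, P3h3 and Crtap), and their DMSO scores reached 167.53 at Crtap. In CK1750, 5 of 16 had none (Plod1, P3h3, P3h4, Fkbp10 and Tmem38b), and P3h1 had a peak with UNC0638 only, of 85.79. P3h4 and Fkbp10 are neighbours with a shared peak.

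Among 8 procollagen processing genes, 4, 3, 3 and 3 had a promoter peak. Bmp1, the main C-proteinase, Pcolce and Pcolce2, which enhance it, had one in every list, and that of Bmp1 also lies in the window of its neighbour Sftpc. Tll1 had one of 51.97 in CK1750 DMSO only. The 5 lysyl oxidase genes, whose products cross-link collagen, gave 3, 2, 2 and 2. Loxl4 (806.56, 438.69, 1336.32 and 402.31) and Loxl3 had peaks in every list, Loxl2 in CK1750 DMSO only (103.38), and Lox and Loxl1 in none. Of 10 receptor genes, the same 4 had a promoter peak in every list, namely Ddr1, Itga1, Itga2 and Itgb1. Ddr2, Itga10, Itga11, Mrc2, Lair1 and Gp6 had none in any list. Over the 42 genes, 7 of 27 calls with DMSO (25.9%) were absent with UNC0638 in CK1750 and 7 of 25 (28.0%) in Tnm2, against 4.85% and 17.7% over all genes. The absent calls had low DMSO scores, from 51.97 (Tll1) to 103.38 (Loxl2) in CK1750, with only Loxl2 above 100. Every gene of the 42 with a CK1750 DMSO score under 100 was absent with UNC0638, P3h4 and Fkbp10 by a shared peak. Among all CK1750 genes, 36.0% were absent from 50 to under 100 and 8.47% from 100 to under 200. In Tnm2 the absent calls scored 61.9 (P3h1) to 167.53 (Crtap), where these shares were 74.5% and 40.3%. Under 100 in Tnm2, P3h1, P3h2 and P3h3 were absent with UNC0638 and Itga2 (64.42) was kept. Equal list lengths were not applied to these genes.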

How the data were processed

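Chromatin immunoprecipitation for H3K27ac was followed by sequencing. The authors aligned reads to mm10 with bowtie2 and ran MACS 1.4.2 on them, with a cutoff in P that equals a score of 50. The deposited lists, 1 merged list per group, give each peak's position and the score as the authors' caller wrote it. Which libraries entered a list and whether input served as control is not given in the sources used here, and reads were not analysed, so no correction for depth was made. The other marks were not used.

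Start sites and gene bodies came from GENCODE M21. Positions were made 1-based, and 0 peaks ended beyond a chromosome. A peak counted when it overlapped a window by at least 1 bp. Sequences came from RefSeq, GRCm38.p6. The members, structural classes, pathway and marker lists were chosen with earlier results of these data known. Genes were named where a promoter peak was called in at least 1 list, and pathway genes where the call differed. Some pathway genes with the same call in every list were named as well. Among members without a promoter peak, the 5 with locus peaks in the most lists were described (ties went by the number of locus peaks, a choice made after the values were seen), and up to 3 changed peaks per line and direction. Alternatives were a score of at least 100, equal numbers of peaks, windows of 1 kb, flanks of 0 and 50 kb, start sites of protein-coding transcripts and merging of peaks within 1 kb. The 5′-most start and the omission of other genes' promoters were added after seeing the data. Counting was tested on simulated peaks. Python 3.11.15, pandas 2.3.3 and numpy 2.4.6 were used.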

Additional observations from a re-analysis of the deposited data

Results flagged for a closer look

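Peak counts at 3 genes moved in opposite directions with UNC0638 in CK1750 and Tnm2, but each group has a merged list without replicates, so the difference was not tested. At Col5a1 the change (UNC0638 minus DMSO) was 2 promoter peaks in CK1750 and -1 in Tnm2, and it was likewise 2 and -1 for locus peaks. The promoter peaks found in CK1750 only with UNC0638 scored 56.0 and 54.8, close to the cutoff of 50. At Col4a1 the change was 1 promoter peak in CK1750 and -2 in Tnm2. The peaks behind it scored 129.37 in CK1750 and 113.61 and 113.25 in Tnm2, while the strong peak over the shared start was present in each list. At Col16a1 the change was -1 locus peak in CK1750 and 2 in Tnm2, all at the promoter of the neighbouring gene Pef1, where the main peak was called in every list. In CK1750 a peak of 54.06 was absent with UNC0638. In Tnm2 a DMSO peak of 232.45 was overlapped by 2 UNC0638 peaks of 64.94 and 52.1, and only a peak of 64.15 had no overlapping DMSO peak.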

How the results depend on the processing

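Of 104 recomputed values, 71 stayed within 1.5 times the reported count and 33 did not. No paired analysis was possible because each group has 1 merged list. With a score of at least 100, promoter genes in Tnm2 were 5 with DMSO and 2 with UNC0638, distinct locus peaks 33 in CK1750 DMSO, 37 in Tnm2 DMSO and 23 in Tnm2 UNC0638, promoter losses 1 in CK1750 and 3 in Tnm2, and DMSO calls in CK1750 only 3 and in Tnm2 only 0. With equal numbers of peaks, promoter genes in Tnm2 DMSO were 5, distinct peaks there 37, losses 1 in CK1750 and 2 in Tnm2, gains in Tnm2 1, and DMSO calls in CK1750 only 3 and in Tnm2 only 0. With a 1 kb window, DMSO calls in CK1750 only were 2. With no flank, locus genes were 11, 9, 13 and 7 and distinct peaks 33, 31, 41 and 20, and with 50 kb the peaks were 95, 87, 113 and 63 (CK1750 DMSO, CK1750 UNC0638, Tnm2 DMSO, Tnm2 UNC0638). Without peaks at other genes' promoters, locus genes were 13, 11 and 9 (CK1750 DMSO, CK1750 UNC0638 and Tnm2 UNC0638) and distinct peaks 22 in Tnm2 UNC0638. The narrower or wider windows and the smaller lists hold fewer or more peaks by construction. Depth limits all absences: a peak under the cutoff cannot be told from no acetylation.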
